A study of Mus musculus with 12 samples.

Results

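The 10 antioxidant enzyme genes *Sod1*, *Sod2*, *Sod3*, *Cat*, *Gpx1*, *Gpx4*, *Hmox1*, *Nqo1*, *Gclm* and *Txnrd1* were followed through bulk RNAseq of primary mouse oligodendrocyte precursor cells (OPCs). They were picked by name, out of 45563 gene symbols in the 2 expression tables, and all 10 were measured in all 12 libraries. The 4 groups of 3 libraries were wild-type (WT) OPCs and OPCs labeled as germline TNFR2 knockout (TNFR2-/-), each either non-stimulated (NS, PBS vehicle) or stimulated for 3 h (St) with TNF, IFNγ and IL1β together, every cytokine at 25 ng/mL. All cells, of both genotypes, were C57BL/6 by the labels, were dissociated from the cortices of pups aged p2 to p5 by the labels, and were kept for 3 days in vitro. The methods add that cells were selected with PDGFRα beads, that all groups received PDGF-AA and FGF2, and that the knockout is germline, so cells other than OPCs lack the receptor too. The comparisons ask how these enzymes respond to the cytokines, and whether the response or the resting level differs with the genotype label.

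Superoxide dismutases convert superoxide to hydrogen peroxide. SOD1 works in the cytosol, SOD2 in the mitochondrial matrix and SOD3 outside the cell. Catalase and the glutathione peroxidases GPX1 and GPX4 remove peroxides, GPX4 acting on lipid peroxides in membranes. *Hmox1* encodes heme oxygenase 1, which degrades heme, and *Nqo1* encodes a quinone reductase. *Gclm* encodes the modifier subunit of the enzyme that starts glutathione synthesis, and *Txnrd1* the cytosolic thioredoxin reductase. The last 4 are textbook targets of the transcription factor NRF2, which is held down by KEAP1 and competes at its sites with the repressor BACH1, whereas *Sod2* is a textbook NF-κB target. OPCs are known as cells with much iron and little glutathione.

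Before the results, several facts of the whole series apply. Library totals ran from 26886878 to 30335265 read pairs, the lowest being WT NS replicate 3. *Tnfrsf1b*, the gene that encodes TNFR2, had 12 to 24 read pairs in the WT NS libraries and 61 to 145 in WT St, but 213 to 346 in the NS libraries labeled TNFR2-/- and 282 to 356 in the St libraries labeled TNFR2-/-. This goes against the label. Which part of the gene these reads came from is not given in the tables, so this gene does not check the deletion, and every direction between genotypes below rests on the label alone. Cytokine response genes behaved as labeled, since *Nfkbia*, *Tnfaip3* and *Irf1* were called higher with stimulation in both genotypes, by 2.70 to 7.28 on the log2 scale. All 5 OPC markers (*Pdgfra*, *Cspg4*, *Olig1*, *Olig2*, *Sox10*) were above 1 FPKM in every group, but their sum was 8163 to 10340 FPKM over the 6 NS and 5578 to 6588 FPKM over the 6 St libraries. With stimulation, 1 of the 5 passed the adjusted p as higher and 3 as lower in WT, and 0 and 4 in the label TNFR2-/- (limma), and the part of this in the stimulation differences below was not tested. Nothing in the sources says that the libraries came from separate animals, so p-values measure the spread between these samples. In bulk RNA, fewer cells of a type and less RNA per cell cannot be told apart.

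Values are FPKM, read pairs scaled by the depositors to gene length and library total. The length divisor behind them was unrelated to the annotated exon length (Spearman's rho 0.026 over 13469 genes), so FPKM served only to compare one gene between libraries. Levels of different genes were set side by side as recovered read pairs per kilobase of annotated exon and per 1000000 read pairs of the library. On that scale *Hmox1* was the most abundant of the 10 in each group. In WT NS libraries it stood at 232 ± 30.3 (SD, n = 3). *Gpx1* followed at 107 ± 22.4 and overlapped *Gpx4* at 75.2 ± 5.91. *Cat* was at 48.1 ± 0.930, *Txnrd1* at 44.0 ± 0.903 and *Sod1* at 39.2 ± 1.49, and these 3 did not overlap. *Sod2* at 19.4 ± 0.397 and *Gclm* at 18.4 ± 0.956 were close to each other but separate. *Nqo1* at 6.30 ± 1.07 and *Sod3* at 2.28 ± 0.563 came last in all 4 groups. Averaged over the 12 libraries, *Hmox1* was above 99.7% of 24633 detected genes on this per-length scale and *Sod3* above 64.9%.

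**Figure D1:**
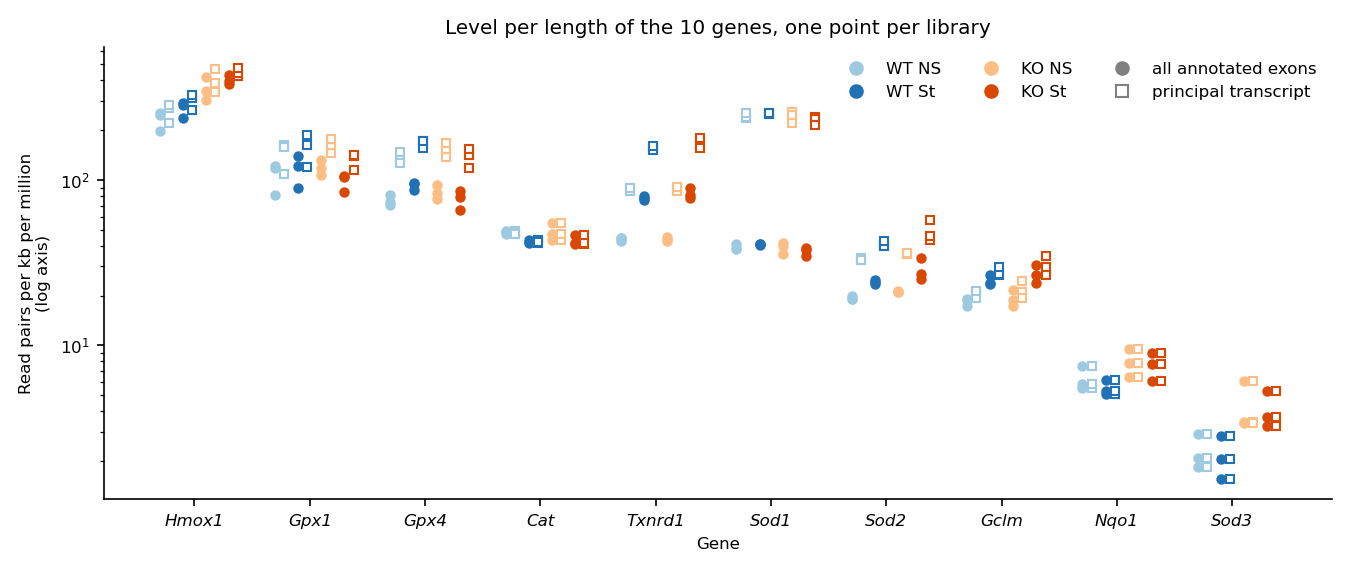
Read pairs per kilobase and per 1000000 read pairs of the library (log axis) of the 10 genes, 1 point per library, colored by group. Filled circles use all annotated exons and open squares the principal transcript. *Hmox1* is highest and *Nqo1* and *Sod3* are lowest by either length, whereas *Sod1* shifts from about 39.2 to 243 in WT NS.

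The middle of that order depended on the length used. With the principal transcript in place of all exons, a choice made after seeing the data, *Sod1* moved to 243 ± 9.20 in WT NS and overlapped *Hmox1* at 259 ± 33.8. *Txnrd1* rose to 88.3 ± 1.81, above *Cat*. Stimulation also altered the order by all exons, as *Txnrd1* passed *Cat* in both genotypes and overlapped *Gpx1* and *Gpx4* in the St libraries labeled TNFR2-/-. Some reads of *Gpx4* and *Sod2* could come from other genes, because 25.2% and 12.8% of their 100-base exon stretches also occur elsewhere, in the pseudogene *Gpx4-ps2* among others. How such reads, or the strand, were treated in counting is not given. *Gclm* shares exon sequence with *Gm17494* on the opposite strand and with *Gm6061*, so a part of its reads is uncertain too.

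**Figure D2:**
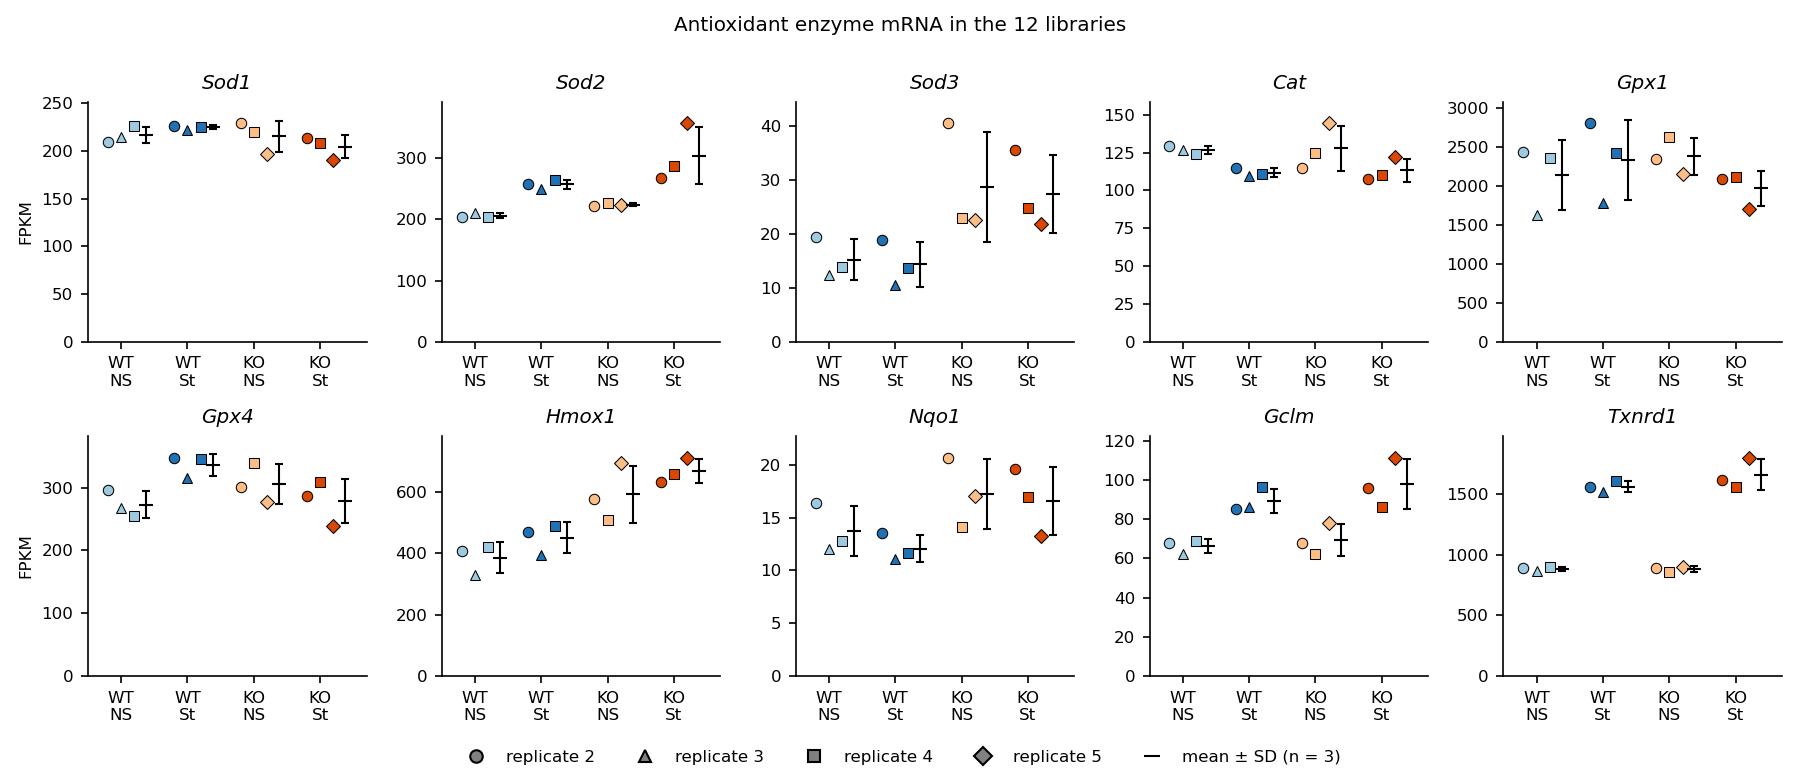
FPKM of each gene in the 12 libraries (1 point per library, KO is the label TNFR2-/-, shapes mark the replicate number, bars mean ± SD, n = 3, axes from 0). *Txnrd1* separates St from NS libraries in both genotypes, from 855 to 903 against 1516 to 1802, and *Hmox1* and *Sod3* separate the genotype labels.

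*Txnrd1* was the clearest responder to the cytokines, and *Gclm* and *Sod2* rose with it in both genotypes. All 3 take part in different steps, namely the recycling of thioredoxin, the supply of glutathione and the dismutation of mitochondrial superoxide. *Txnrd1* (ENSMUSG00000020250, GRCm38 chr10:82833951-82897712, plus strand) had 890, 862 and 896 FPKM in WT NS libraries and 1560, 1516 and 1610 FPKM in WT St libraries. In libraries labeled TNFR2-/-, it had 887, 855 and 903 FPKM without and 1619, 1558 and 1802 FPKM with stimulation. Every St library was above every NS library. The increase was 0.82 ± 0.06 on the log2(FPKM + 0.5) scale in WT (SE, limma, adjusted p = 3.3e-06) and 0.91 ± 0.06 in the label TNFR2-/- (limma, adjusted p = 1.28e-06). Within the single cultures it was 1.75- to 1.80-fold in WT and at least 1.82-fold in the label TNFR2-/-.

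*Gclm* (ENSMUSG00000028124, chr3:122245557-122270732, plus strand) had 67.9, 62.4 and 68.8 FPKM in WT NS libraries and 85.3, 86.2 and 96.1 FPKM in WT St libraries. The libraries labeled TNFR2-/- had 67.7, 62.4 and 78.2 FPKM without and 95.8, 86.0 and 111 FPKM with stimulation. The St libraries were above the NS libraries in both genotypes without overlap. The increases were 0.42 ± 0.11 (limma, adjusted p = 0.0204) in WT and 0.49 ± 0.11 (limma, adjusted p = 0.00696) in the label TNFR2-/-. The WT adjusted p no longer passed without WT NS replicate 2 (adjusted p = 0.0503), WT NS replicate 3 (0.077) or WT St replicate 4 (0.0841) in limma. With all libraries and the culture as a block, described below, the adjusted p was 0.000384 in WT and 0.000158 in the label TNFR2-/- (limma).

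*Sod2* (ENSMUSG00000006818, chr17:13006846-13040063, plus strand) had 204, 211 and 204 FPKM in WT NS libraries and 257, 250 and 265 FPKM in WT St libraries. In the libraries labeled TNFR2-/- it went from 222, 226 and 224 FPKM to 269, 288 and 357 FPKM. Replicate 5 gave the highest stimulated value, and the groups did not overlap in either genotype. The increases were 0.32 ± 0.09 (limma, adjusted p = 0.0301) and 0.43 ± 0.09 (limma, adjusted p = 0.00455). In WT, the adjusted p no longer passed when any 1 of the 6 WT libraries was left out (limma, 0.0577 to 0.103). With all libraries and the culture block, the adjusted p of *Sod2* was 0.0197 in WT and 0.00431 in the label TNFR2-/- (limma). Beside these increases, the sum of 5 neuron markers (*Rbfox3*, *Snap25*, *Tubb3*, *Syt1*, *Stmn2*) was 112 to 115.9 FPKM in WT NS and 474 to 503 FPKM in WT St libraries, and 82.9 to 125 and 503 to 575 FPKM in the label TNFR2-/-. The rise of the sum was that of *Tubb3*, which went from 41.6 to 76.9 FPKM over the 6 NS libraries to 417 to 539 FPKM over the 6 St libraries. *Snap25* was lower in the St than in the NS library of all 6 cultures, from 11.5 to 22.9 FPKM over the NS and 6.57 to 9.44 FPKM over the St libraries. All 5 were above 1 FPKM in each group on average, and the part of other cells in the stimulation differences was not tested.

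To show what lies before these genes, their windows from 250 bases before to 50 bases after the start (RefSeq, GRCm38.p6, plus strand) are given for the 3 genes that rose, along with that of *Sod1*, which did not pass the test in any comparison. The windows of 8 of the 10 genes were at hand. They were searched on both strands for 2 motifs of 9 letters, namely the core of the antioxidant response element (TGACNNNGC), through which NRF2 acts, and the first letters of a common κB element (GGGANNTTC), and matches stand in capitals. The coordinates are chr10:82858956-82859255 for the *Txnrd1* start that held a match, chr3:122245307-122245606 for *Gclm*, chr17:13007589-13007888 for *Sod2* and chr16:90220512-90220811 for *Sod1*.
Txnrd1: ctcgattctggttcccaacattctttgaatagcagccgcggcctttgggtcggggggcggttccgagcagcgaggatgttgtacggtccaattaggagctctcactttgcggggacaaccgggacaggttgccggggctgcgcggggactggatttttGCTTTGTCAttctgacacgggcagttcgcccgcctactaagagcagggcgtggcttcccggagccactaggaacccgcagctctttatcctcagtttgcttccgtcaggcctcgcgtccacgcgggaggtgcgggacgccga
Gclm: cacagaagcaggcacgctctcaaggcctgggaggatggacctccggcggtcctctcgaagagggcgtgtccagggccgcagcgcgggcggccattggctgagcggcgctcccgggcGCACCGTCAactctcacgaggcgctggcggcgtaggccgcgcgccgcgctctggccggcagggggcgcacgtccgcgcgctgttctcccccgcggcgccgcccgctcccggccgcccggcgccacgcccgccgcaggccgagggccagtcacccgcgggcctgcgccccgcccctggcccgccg
Sod2: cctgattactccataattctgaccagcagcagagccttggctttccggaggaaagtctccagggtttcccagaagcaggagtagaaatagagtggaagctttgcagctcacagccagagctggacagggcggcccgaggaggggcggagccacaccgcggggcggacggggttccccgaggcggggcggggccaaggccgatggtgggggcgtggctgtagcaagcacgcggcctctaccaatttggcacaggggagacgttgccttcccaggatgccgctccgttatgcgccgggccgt
Sod1: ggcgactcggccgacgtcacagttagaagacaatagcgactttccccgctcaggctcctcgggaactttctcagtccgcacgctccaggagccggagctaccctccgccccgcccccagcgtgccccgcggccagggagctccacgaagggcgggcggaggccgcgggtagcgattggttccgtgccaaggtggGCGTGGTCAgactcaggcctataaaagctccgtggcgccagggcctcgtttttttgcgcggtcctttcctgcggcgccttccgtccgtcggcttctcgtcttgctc

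The response element core was present in *Txnrd1* at 1 of its 3 starts, in *Gclm* and in *Sod1*, each time on the minus strand. The first base of the match lay at position -92, -134 and -56 from the start, respectively. Thus 3 of the 13 windows of these genes held it, against 12.4% of 32851 windows of all genes. The κB letters were found in 1 of the 13 windows, that of *Gpx1*, at position -54, against 3.94% of all windows. The printed *Sod2* window held neither. A match is a description of letters and not evidence of binding, and *Sod1*, with a match, did not pass the test while *Sod2*, without one, rose.

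By the full criterion (adjusted p not above 0.05, change of 1.5-fold or more, mean 1 FPKM or more), *Txnrd1* alone was called with stimulation in each genotype. Of all 18081 genes tested, 7.53% were called in WT and 10.1% in the label TNFR2-/-. By the adjusted p alone, 3 of 10 members passed in each genotype, all higher, against 16.1% and 26% of all genes. Groups did not overlap for 5 members in WT and 4 in the label TNFR2-/-, against 37.7% and 37.3% of all genes, so these counts were near the background. The median log2 change of the 10 members was 0.18 in WT, beside -0.05 over all genes, and -0.05 in the label TNFR2-/-, beside -0.11 over all genes.

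**Figure D3:**
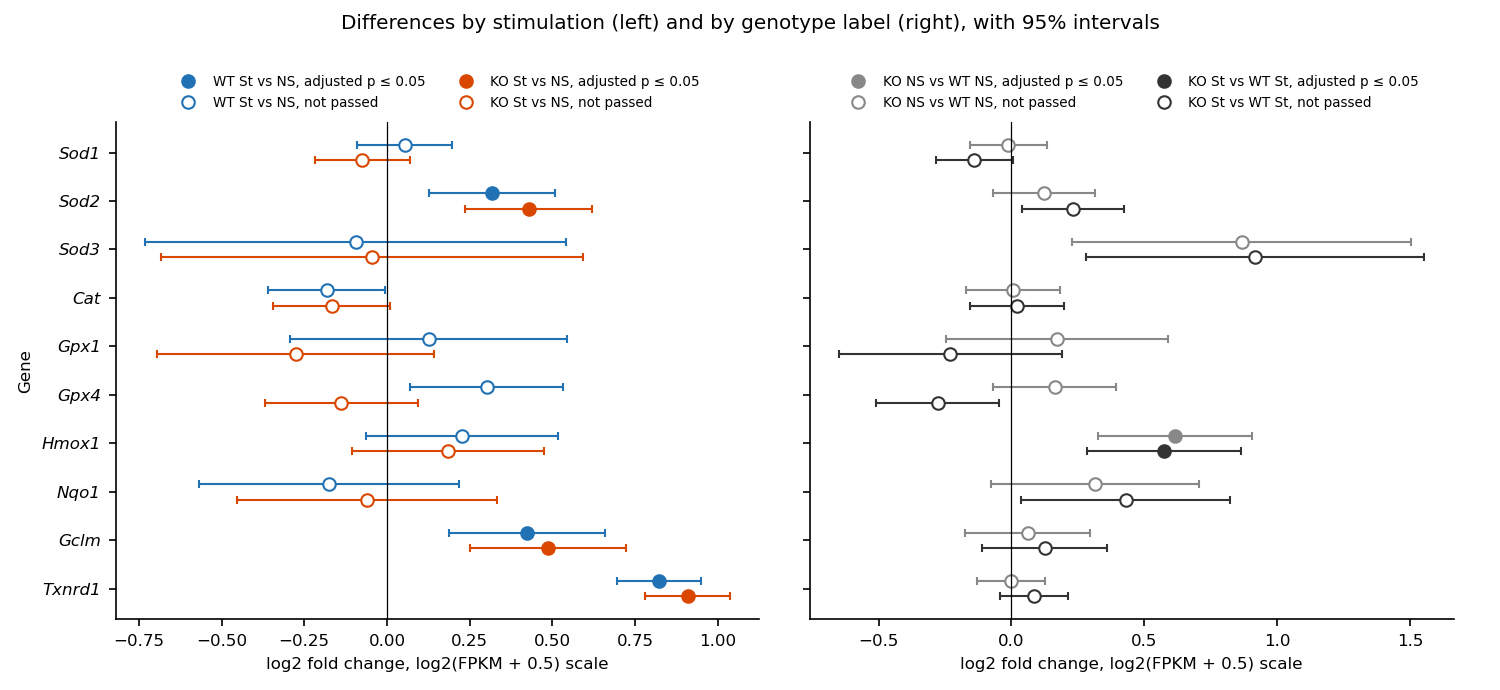
Log2 fold change of the 10 genes with 95% intervals, by stimulation (left) and by genotype label (right), on the log2(FPKM + 0.5) scale, limma over 12 libraries. Filled points had an adjusted p of at most 0.05, which were *Sod2*, *Gclm* and *Txnrd1* in both stimulation comparisons and *Hmox1* in both genotype comparisons.

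Libraries with the same genotype and number deviated together, so the culture was also used as a block. Under this block 6 members passed in each genotype, against 31.6% of all genes in WT and 45.1% in the label TNFR2-/-. *Cat*, the catalase gene, was among the added ones and was lower. It had 129, 127 and 124 FPKM in WT NS and 115, 109 and 111 FPKM in WT St libraries, which did not overlap. In the label TNFR2-/- it had 115, 124 and 144 FPKM without and 108, 110 and 122 FPKM with stimulation, with replicate 5 high in both. The changes of -0.18 ± 0.08 and -0.17 ± 0.08 had an adjusted p of 0.169 and 0.154 in limma without the block, and of 0.0103 and 0.0102 with it.

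*Hmox1* was also among the added ones. It was higher with stimulation in each of the 6 cultures, by at most 1.20-fold in WT and by 1.03- to 1.30-fold in the label TNFR2-/-. The limma changes of 0.23 ± 0.13 and 0.18 ± 0.13 had an adjusted p of 0.313 and 0.344 without the block and of 0.0318 and 0.0485 with it.

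For the glutathione peroxidases, the St values lay above the NS values in the 3 WT cultures and below them in the 3 others. *Gpx4* had 296, 267 and 254 FPKM in WT NS and 348, 315 and 345 FPKM in WT St libraries. In the label TNFR2-/- it had 301, 339 and 277 FPKM without and 286, 309 and 240 FPKM with stimulation. In WT, the 2 groups did not overlap, whereas in the label TNFR2-/- they did. The WT difference of 0.30 ± 0.10 had an adjusted p of 0.0794 in limma and of 0.00478 with the block, and that in the label TNFR2-/- was -0.14 ± 0.10 (limma, adjusted p = 0.376, with the block 0.0641).

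*Gpx1* had 2437, 1621 and 2354 FPKM in WT NS and 2799, 1780 and 2424 FPKM in WT St libraries. WT replicate 3 was low in both. In the label TNFR2-/- it had 2349, 2624 and 2156 FPKM without and 2082, 2115 and 1701 FPKM with stimulation, and these groups did not overlap. The WT difference of 0.13 ± 0.19 did not pass (limma, adjusted p = 0.749, with the block 0.0795). In the label TNFR2-/- the difference of -0.28 ± 0.19 passed only with the block (limma, adjusted p = 0.00321, without it 0.325).

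**Figure D4:**
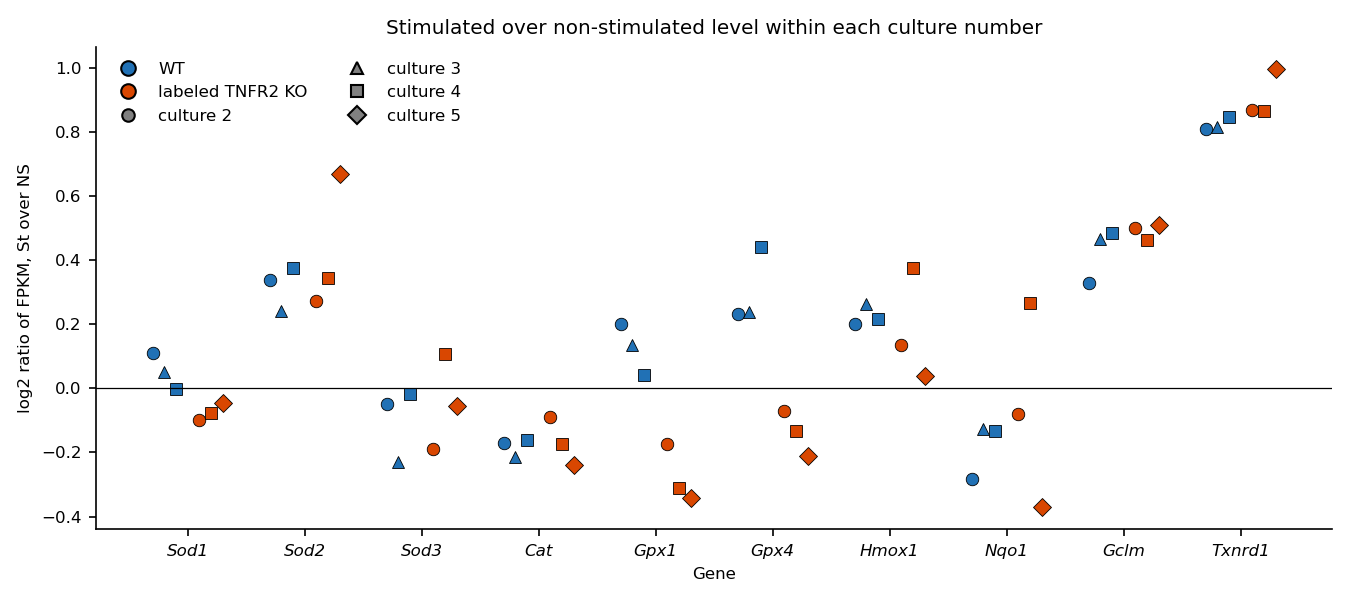
Log2 ratio of FPKM, St over NS, within each culture number for the 10 genes (WT blue, label TNFR2-/- orange, shapes mark the number). All 6 cultures lie above 0 for *Sod2*, *Hmox1*, *Gclm* and *Txnrd1* and below 0 for *Cat*, whereas *Gpx1* and *Gpx4* lie above 0 in the 3 WT cultures and below 0 in the other 3.

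The remaining members did not pass either way. *Sod1* ranged from 191 to 229 FPKM over all 12 libraries, and its stimulation differences were 0.05 ± 0.06 and -0.07 ± 0.06 in WT and the label TNFR2-/-. *Sod3* differed by -0.10 ± 0.29 in WT and by -0.05 ± 0.29 in the label TNFR2-/-. *Nqo1* had 12.1 to 16.4 FPKM in WT NS and 11.04 to 13.5 FPKM in WT St, a difference of -0.17 ± 0.18, and in the label TNFR2-/- it differed by -0.06 ± 0.18. The signs of *Sod1*, *Sod3* and *Nqo1* in the label TNFR2-/- turned under median-of-ratios scaling. *Nqo1* and *Sod3* are also the least sequenced members, with 231 to 443 and 176 to 682 read pairs, and their 95% intervals reached from -0.57 to 0.22 and from -0.73 to 0.54 in WT.

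When the stimulation responses of the 2 genotypes were subtracted from each other, no member was called or passed the adjusted p (limma). Nor did any pass with the culture block. Without the block, 1 of the 10 had an unadjusted p under 0.05 (limma), and the share of all genes at that level was not counted. With the block, the 95% intervals of *Sod1*, *Gpx1* and *Gpx4* lay below 0. Only 1 gene of all was called, 0.00553% of those tested, by the full criterion, by the adjusted p alone and under the block. The *Txnrd1* responses differed by 0.09 ± 0.08 (limma, adjusted p = 0.863), with a 95% interval from -0.09 to 0.27. The largest differences were -0.44 ± 0.15 for *Gpx4* (limma, adjusted p = 0.543, with the block 0.0968) and -0.40 ± 0.27 for *Gpx1* (limma, adjusted p = 0.765, with the block 0.0968).

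Between genotype labels, *Hmox1* stood out among the members. *Hmox1* (ENSMUSG00000005413, chr8:75093621-75100589, plus strand) had 409, 328 and 421 FPKM in WT NS libraries and 576, 509 and 694 FPKM in the NS libraries labeled TNFR2-/-. With stimulation it had 470, 393 and 489 FPKM in WT and 633, 660 and 713 FPKM in the label TNFR2-/-. All 6 libraries labeled TNFR2-/- were above all 6 WT libraries. The NS difference was 0.62 ± 0.13 (limma, adjusted p = 0.0224), and it was called. The St difference was 0.57 ± 0.13 (limma, adjusted p = 0.0387), just under the threshold of 1.5-fold.

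These *Hmox1* differences did not pass in every alternative. The NS call was lost without WT NS replicate 3 (limma, adjusted p = 0.0927) or 4 (0.0623), without NS replicate 2 (0.055) or 5 (0.0713) of the label TNFR2-/-, and in a fit of the 6 NS libraries alone (0.0924). It was also lost under median-of-ratios scaling, and with the replicate number as a block across genotypes, where *Sod3* was the member called. Over the alternatives the NS difference ranged from 0.43 to 0.72 and the St difference from 0.39 to 0.64. The St p-value passed in 10 of 24 alternatives, reaching 0.139 in limma without WT St replicate 3 and 0.124 without St replicate 5 of the label TNFR2-/-. Without both libraries of culture 5, a choice made after seeing the data, the differences were 0.50 ± 0.13 (limma, adjusted p = 0.0604) and 0.53 ± 0.13 (limma, adjusted p = 0.0682).

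Summed astrocyte markers were, like *Hmox1*, higher in all libraries labeled TNFR2-/- than in all WT libraries. The sum of 5 of them (*Gfap*, *Aqp4*, *Aldh1l1*, *Slc1a2*, *Gja1*) was 399 to 590 FPKM in WT NS and 449 to 632 FPKM in WT St, but 773 to 1795 FPKM in NS and 942 to 1961 FPKM in St libraries labeled TNFR2-/-, with replicate 5 highest. *Aldh1l1* overlapped between labels in NS libraries, at 36.1 to 62.3 FPKM in WT and 60.5 to 100 FPKM in the label TNFR2-/-. All 5 were above 1 FPKM in each group. By the adjusted p, 1 of the 5 passed as higher in the label TNFR2-/- in NS and 1 in St libraries (limma), against 10.9% and 5.45% of all genes. *Gja1*, the gap junction gene among them, was also 1 of the 3 genes most like *Hmox1* over the 12 libraries (Pearson's r 0.962 among 13553 genes), next to the mitochondrial glycerol phosphate dehydrogenase *Gpd2* (0.966) and the lactate dehydrogenase *Ldhd* (0.962). The libraries share their groups and cultures, and these are descriptions. The part of astrocyte RNA in the *Hmox1* difference was not tested. The 5 microglia markers summed to 1.70 to 4.52 FPKM over the 12 libraries, and 1 of the 5 was above 1 FPKM.

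**Figure D5:**
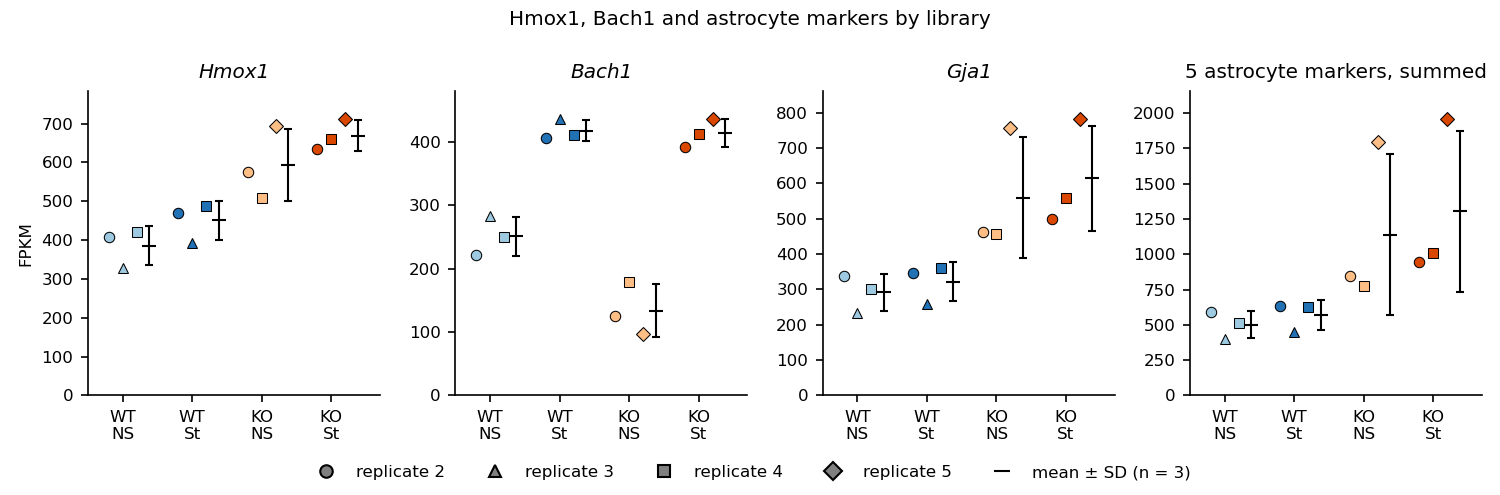
FPKM of *Hmox1*, *Bach1*, *Gja1* and of 5 astrocyte markers summed, in the 12 libraries (KO is the label TNFR2-/-, shapes mark the replicate number, bars mean ± SD, n = 3, axes from 0). *Hmox1*, *Gja1* and the summed markers are higher in all libraries labeled TNFR2-/-, with replicate 5 highest, whereas *Bach1* is lower there in NS libraries and level with WT in St libraries.

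*Sod3*, the extracellular dismutase, showed the largest difference in size between labels but did not pass. It had 19.5, 12.3 and 13.9 FPKM in WT NS and 40.5, 23.0 and 22.6 FPKM in NS libraries labeled TNFR2-/-. With stimulation the values were 18.8, 10.49 and 13.7 FPKM against 35.5, 24.8 and 21.8 FPKM. The groups did not overlap in either condition, while replicate 2 was well above the others in the label TNFR2-/-. The differences were 0.87 ± 0.29 (limma, adjusted p = 0.0757) and 0.92 ± 0.29 (limma, adjusted p = 0.0803). The 6 mural and fibroblast markers summed to 56.3 to 140 FPKM in WT NS and 42.5 to 187 FPKM in WT St libraries, and to 38.5 to 47.6 and 23.7 to 32.1 FPKM in the label TNFR2-/-, and their part in the *Sod3* values was not tested. On average 3 of the 6 were above 1 FPKM in each NS group and 4 in each St group. *Lum*, among them, was higher with stimulation, at most 0.5 FPKM in NS and 1.59 to 2.51 FPKM in St libraries.

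*Nqo1* had 14.1 to 20.7 FPKM in NS and 13.2 to 19.6 FPKM in St libraries labeled TNFR2-/-, overlapping the WT values in both conditions. The differences were 0.31 ± 0.18 (limma, adjusted p = 0.263) and 0.43 ± 0.18 (limma, adjusted p = 0.156). *Sod2* was higher in the label TNFR2-/- without overlap, by 0.12 ± 0.09 in NS and 0.23 ± 0.09 in St libraries (limma, adjusted p = 0.38 and 0.124). *Gpx4* and *Sod1* lay below the WT values without overlap in St libraries, with differences of -0.28 ± 0.10 and -0.14 ± 0.06 (limma, adjusted p = 0.127 and 0.2). *Gpx1* differed by 0.17 ± 0.19 in NS and -0.23 ± 0.19 in St libraries. The differences of *Cat*, *Gclm* and *Txnrd1* between labels were at most 0.12 in size, and the 95% interval of *Txnrd1* in NS libraries was -0.13 to 0.13.

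In the count, 1 of 10 members (*Hmox1*) was called between NS libraries, against 2.9% of all genes, and none between St libraries, against 1.8%. By the adjusted p alone *Hmox1* passed in both, against 10.9% and 5.45% of all genes. Groups did not overlap for 3 members in NS and 5 in St libraries, against 34.2% and 32.7% of all genes. An unadjusted p under 0.05 was reached by 2 members in NS and by 5 in St libraries (limma). The share of all genes at that level was not counted, so these counts have no background to be read against. Voom on the recovered reads called 0 members in St libraries as well. The 2 genotype comparisons and the 2 stimulation comparisons use the same libraries in pairs, so they are not independent.

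Other genes of the same pathways, from lists chosen with earlier results known, give the setting of these changes. Their counts stand beside the genes that passed in either direction among all tested, 16.1% in WT and 26% in the label TNFR2-/- without the culture block and 31.6% and 45.1% with it. Among 10 NRF2 pathway regulators, 3 passed the adjusted p as higher with stimulation in WT (5 with the culture block) and 4 in the label TNFR2-/- (4 with the block), with 0 and 1 passing as lower under the block and 0 in each genotype without it (limma). *Bach1*, the heme-sensitive repressor of *Hmox1*, had 221, 283 and 250 FPKM in WT NS and 405, 436 and 410 FPKM in WT St libraries. In the label TNFR2-/- it had 126, 179 and 96.6 FPKM without and 392, 412 and 436 FPKM with stimulation. It thus rose by 0.74 ± 0.18 in WT and by 1.67 ± 0.18 in the label TNFR2-/- (limma, adjusted p = 0.0169 and 6.71e-05). In NS libraries it was lower in the label TNFR2-/-, with a difference of -0.94 ± 0.18 (limma, adjusted p = 0.0178), and in St libraries it differed by -0.01 ± 0.18.

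The small MAF genes encode partners of both NRF2 and BACH1. *Maff* rose by 1.46 ± 0.27 and 1.70 ± 0.27 with stimulation in WT and the label TNFR2-/- (limma, adjusted p = 0.00417 and 0.00121). *Mafk* rose by 0.53 ± 0.13 and 0.73 ± 0.13 (limma, adjusted p = 0.0174 and 0.00187) and was lower in NS libraries labeled TNFR2-/-, with a difference of -0.54 ± 0.13 (limma, adjusted p = 0.0295). *Nfe2l2*, *Keap1* and *Cul3* were picked out after their values were seen. *Nfe2l2*, which encodes NRF2, rose by 0.44 ± 0.15 in the label TNFR2-/- (limma, adjusted p = 0.0477), and its WT difference of 0.34 ± 0.15 passed only with the block (limma, adjusted p = 0.0061, without it 0.158). *Keap1* was higher in NS libraries labeled TNFR2-/- by 0.31 ± 0.07 (limma, adjusted p = 0.0216). *Cul3* was lower there, with a difference of -0.21 ± 0.05 (limma, adjusted p = 0.0339). Of the 10 regulators, 1 passed as higher and 3 as lower between NS libraries (limma), beside 10.9% of all genes in either direction.

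Among 20 tested genes of glutathione synthesis and use, 2 passed as higher and 1 as lower in WT (2 and 2 with the block), and 2 as higher and 6 as lower in the label TNFR2-/- (2 and 11 with the block). In WT these counts were near or under the 16.1% of all genes, or 31.6% with the block, and in the label TNFR2-/- they stand beside 26% and 45.1%. The cystine transporter gene *Slc7a11* went from 38.9 ± 5.48 to 62.9 ± 5.28 FPKM in WT and from 41.8 ± 5.81 to 112 ± 34.3 FPKM in the label TNFR2-/- (SD, n = 3), increases of 0.69 ± 0.19 and 1.38 ± 0.19 (limma, adjusted p = 0.0318 and 0.000443). Between St libraries it was higher in the label TNFR2-/- by 0.78 ± 0.19 (limma, adjusted p = 0.0444), with replicate 5 at 151 FPKM, and the difference of the 2 responses did not pass (limma, adjusted p = 0.583). *Chac1*, whose product degrades glutathione, fell by 0.70 and 1.11 on the log2 scale (limma, adjusted p = 0.0156 and 0.00076). The glutaredoxin gene *Glrx* rose by 0.59 ± 0.07 and 0.49 ± 0.07 (limma, adjusted p = 0.000239 and 0.000593). *Gclc*, singled out after its values were seen because it encodes the catalytic partner of GCLM, was lower with stimulation in the label TNFR2-/-. It differed by -0.36 ± 0.16 in WT (limma, adjusted p = 0.165, with the block 0.00722) and by -0.54 ± 0.16 in the label TNFR2-/- (limma, adjusted p = 0.0301).

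In the thioredoxin and methionine sulfoxide list, 1 of 11 genes passed as higher and 2 as lower in WT, and 1 and 3 in the label TNFR2-/- (with the block 2 and 2, and 2 and 4), beside 16.1% and 26% of all genes (31.6% and 45.1% with the block). The thioredoxin-binding gene *Txnip* rose by 1.80 ± 0.37 and 1.74 ± 0.37 (limma, adjusted p = 0.00758 and 0.00653) from 0.882 ± 0.354 and 1.58 ± 0.547 FPKM. *Sesn1*, a sestrin gene, fell by 0.57 and 0.84 on the log2 scale (limma, adjusted p = 0.000659 and 2.99e-05). Of 10 further superoxide and peroxide enzymes tested, 0 passed with stimulation in WT and 1 passed as lower in the label TNFR2-/- (0 and 5 with the block, limma). Between NS libraries 3 of the 10 passed as higher in the label TNFR2-/- (limma), beside 10.9% of all genes in either direction.

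None of the 8 NADPH supply genes passed as higher with stimulation in either genotype, and 0 in WT and 2 in the label TNFR2-/- passed as lower (3 and 6 with the block, limma), beside 16.1% and 26% of all genes in either direction (31.6% and 45.1% with the block). Among 9 heme and iron genes, 0 passed as higher and 1 as lower in each genotype (2 and 4 lower with the block, limma). On the side of production, 7 of the 17 listed superoxide and nitric oxide source genes reached the level to be tested, and 2 passed as higher in each genotype. *Nos2*, the inducible nitric oxide synthase gene, averaged 0.0273 FPKM in WT NS and 6.11 ± 2.09 FPKM in WT St libraries, and 0.0180 and 11.4 ± 6.87 FPKM in the label TNFR2-/- (limma, adjusted p = 5.1e-05 and 9.21e-06). *Nos2* and *Xdh* of this list lay near 0 in NS libraries, *Xdh* at 0 to 0.208 FPKM. They reached the level to be tested through the St libraries, so their place in this count was in part set by the filter.

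The genes whose levels were most like *Txnrd1* over the 12 libraries were the integrin-associated gene *Cd47* (Pearson's r 0.998), the transcription factor gene *Batf2* (0.998) and the NF-κB feedback gene *Tnfaip3* (0.997), all among 13553 genes and all high in the 6 St libraries. The libraries fall into St and NS sets for these genes, so r mainly restates that split.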

How the data were processed

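RNA from 12 OPC libraries (4 groups of 3) was sequenced as read pairs. Per the methods and labels, the authors' processing used Trim Galore for trimming, alignment to GRCm38 with an Ensembl annotation, STAR for gene counts, and EdgeR. The values were deposited as FPKM in 2 tables, 1 for NS and 1 for St libraries. The sequencer is a BGISeq-500 by the methods, but the labels speak of Illumina protocols. Each FPKM value was a whole number of read pairs divided by its own library's total and by 1 divisor per gene shared by both tables (26636 of 26636 genes above 0 in at least 2 libraries, tolerance of 1e-05 reads or 3e-09 of the reads, whichever was larger), so the tables were compared directly. The divisor was not the exon length, and levels between genes used GENCODE M21 exon lengths instead. Symbols occurring more than once (99, with 229 entries) were left out.

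Since FPKM are not counts, limma 3.58.1 (R 4.3.3) was fitted to log2(FPKM + 0.5) over the 18081 genes averaging 0.1 FPKM or more, with 4 group means, an empirical Bayes prior with a mean trend and Benjamini-Hochberg adjustment. A gene was called with an adjusted p at or below 0.05, a change of 1.5-fold or more and a mean of 1 FPKM or more. On simulated data for the comparison of St libraries (17929 genes), 83 of 100 genes changed 2-fold, 98 of 100 changed 4-fold and 7 of 17729 unchanged genes were called. Named genes were all 10 members, the called genes of the related lists (at most 3 per direction) and the 3 genes most correlated with each called member. Members and lists were chosen with earlier results of these data known.

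The replicate numbers were checked as pairs. Deviations from the group means correlated at 0.34 to 0.65 in the 6 pairs of the same genotype and number, at -0.45 to 0.088 in the 12 pairs of the same genotype and other numbers, and at -0.055 to 0.2 in the 4 pairs of the same number across genotypes (13554 genes). The culture was therefore used as a block within genotype, and the number as a block across genotypes only as an alternative. Alternatives included other pseudocounts and filters, median-of-ratios and quantile scaling, voom on the recovered reads, a fit of only the 6 libraries compared, and leaving out each library. Promoter windows were searched in Python 3.11.15. A gene of the stimulation check is not reported here.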

Additional observations from a re-analysis of the deposited data

Results flagged for a closer look

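*Gpx4* and *Gpx1* were flagged because they rose in every WT culture and fell in every culture labeled TNFR2-/-. The split was not particular to them. *Prdx1*, *Prdx2*, *Prdx4*, *Ccs*, *Gsr*, *Txn2* and *Keap1* of the related lists showed it in the same directions, and its share over all genes was not counted. For *Gpx4*, the 3 WT cultures were 1.17- to 1.36-fold higher with stimulation and the 3 cultures labeled TNFR2-/- were at 0.864 to 0.952 of their NS level. The response in the label TNFR2-/- minus that in WT was -0.44 on the log2 scale (limma, adjusted p = 0.543, with the culture block 0.0968). For *Gpx1*, the WT cultures were 1.03- to 1.149-fold higher and the others were at 0.789 to 0.886, a difference of the responses of -0.401 (limma, adjusted p = 0.765, with the culture block 0.0968). Neither difference passed the adjusted p, nor did that of *Prdx2* (-0.33, limma with the culture block, adjusted p = 0.0968). Among the *Gpx4* exon stretches of 100 bases, 25.2% also occur in other genes, against 0% for *Gpx1*, and the part of such reads was not tested.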

How the results depend on the processing

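*Txnrd1* rose with stimulation in both genotypes in all 25 alternatives, with adjusted p of at most 0.000229 in WT and 0.000816 in the label TNFR2-/-. *Gclm* and *Sod2* kept their direction in all 25 and passed in 21 and 18 of them in WT and in 24 and 24 in the label TNFR2-/-. *Hmox1* was higher in the label TNFR2-/- in all 24 alternatives and passed in 17 of them between NS and in 10 between St libraries. The number of members called between NS libraries was 0 under median-of-ratios scaling and in the fit of 6 libraries, and 0 to 1 when libraries were left out, including both libraries of 1 culture (chosen after seeing the data). Between St libraries it was 1 with the adjusted p alone, under median-of-ratios scaling, under quantile normalization and with the replicate block. With the replicate block the member called was *Sod3* and not *Hmox1*, between St libraries (difference 0.89) as between NS libraries (0.84). With stimulation the number of members called was 3 in each genotype with the adjusted p alone, and 2 in the label TNFR2-/- under median-of-ratios scaling.

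The replicate number as a block across genotypes, where the numbers did not pair the libraries, gave *Sod3* an adjusted p of 0.00367 between NS and 0.00482 between St libraries, and *Gpx1* one of 0.0259 between St libraries. The culture block moved no other member across the adjusted p of 0.05 than those given with its values. Signs turned only for differences that had not passed. Between NS libraries, with the replicate block, *Sod1* was at 0.036, *Cat* at -0.074 and *Gclm* at -0.066. There, *Cat* was at -0.0364 under median-of-ratios scaling and at -0.025 under quantile normalization, which put *Txnrd1* at 0.033. Between St libraries, the replicate block put *Cat* at -0.060 and *Gclm* at -0.0021. Median-of-ratios scaling put the stimulation differences in the label TNFR2-/- at 0.042 for *Sod1*, 0.069 for *Sod3* and 0.053 for *Nqo1*, and the difference of responses of *Hmox1* at 0.016. When libraries were left out, the NS difference ranged from -0.057 to 0.051 for *Sod1*, -0.085 to 0.080 for *Cat*, -0.016 to 0.28 for *Gpx1*, -0.028 to 0.13 for *Gclm* and -0.019 to 0.020 for *Txnrd1*. The St difference of *Cat* ranged from -0.0348 to 0.055. The WT stimulation difference ranged from -0.31 to 0.10 for *Sod3* and -0.062 to 0.31 for *Gpx1*, and that in the label TNFR2-/- from -0.24 to 0.23 for *Sod3* and -0.20 to 0.090 for *Nqo1*. The difference of responses ranged from -0.0097 to 0.20 for *Sod2*, -0.15 to 0.32 for *Sod3*, -0.060 to 0.10 for *Cat*, -0.15 to 0.076 for *Hmox1*, -0.020 to 0.26 for *Nqo1* and -0.034 to 0.15 for *Gclm*. The causes of these changes were not tested. With 3 libraries a group, the intervals of *Sod3*, *Gpx1* and *Nqo1* were the widest of the members, and small changes of these genes were not detectable.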

Other observations

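Replicate 2 had the highest value of both *Sod3* and *Nqo1* in all 4 groups, at 19.5, 18.8, 40.5 and 35.5 FPKM for *Sod3* and at 16.4, 13.5, 20.7 and 19.6 FPKM for *Nqo1* in WT NS, WT St, NS labeled TNFR2-/- and St labeled TNFR2-/-, respectively. WT and labeled TNFR2-/- cultures of the same number were not paired, and this was seen after looking at the values. *Gpx1* was lowest in replicate 3 of both WT groups, at 1621 and 1780 FPKM, and in replicate 5 of both groups labeled TNFR2-/-, at 2156 and 1701 FPKM.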
